A study of Arabidopsis thaliana with 4 samples.

Results

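Beta-glucosidase genes of the BGLU family were examined in Arabidopsis thaliana seedlings of the add3 mutant and of wild type. The genes were taken as those for which the array's platform annotation gives a probe set to 1 gene alone, with a symbol that begins BGLU or is PYK10. This gave 21 genes of the 13350 that had a probe set of their own, and each of the 21 had 1 such probe set. A gene table of the TAIR10.1 assembly names 47 BGLU loci by symbol or synonym, so 26 of them were not analysed here. Such loci may still be on the array, as 8730 probe sets have no gene in the annotation used. The same holds for the listed genes and markers below that are counted as having no probe set. The rule itself uses annotation and no signal, although it was written with earlier results of these data known.

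Plant BGLU enzymes belong to glycoside hydrolase family 1. They remove glucose, or a related sugar, from small molecules such as hormones, flavonols, coumarins, lignin precursors and glucosinolates, and thereby activate, mobilise or break down a stored conjugate. Some members are kept in ER bodies, spindle-shaped compartments of the endoplasmic reticulum that are typical of the mustard order, where PYK10 is the main protein and is released when cells are damaged.

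The add3 group (ARRESTED DEVELOPMENT 3) came from an EMS mutagenesis in the Col-3 gl1 background, in which gl1 removes leaf hairs, and the wild-type group was Col-0. The mutation and the background therefore cannot be told apart. Plants of both groups were at developmental stage 1.02 and had grown on peat mix at 29 °C under 24 h of light per day, after 4 days at 4 °C. The RNA came from hypocotyls, cotyledons, meristems, the first true leaves and leaf primordia, and each group had 2 samples on 1 Affymetrix ATH1 array each. Nothing in the labels says whether replicates came from separate plantings, so the spread that p-values rest on may be technical. In such mixed tissue, fewer cells of a type and less RNA per cell cannot be told apart.

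Values are MAS5 signals on a linear scale. Median signals lay between 48.2 and 52.1 on the 4 arrays, and the level that bacterial control probe sets reached, used here as background, was 20.5 and 13.0 in wild-type replicates 1 and 2 and 25.4 and 12.3 in add3 replicates 1 and 2. Of 8 marker lists for the cell types that such samples could hold, 10 of 77 loci had a probe set of their own, 4 were tested, and limma called 0 of them (0 also at an unadjusted p under 0.05). RCA, a leaf mesophyll marker, read 3521 and 3068 in wild type and 3086 and 3537 in add3, and GL1 was not analysed here. Signals of different probe sets are not comparable with each other, so each gene below is compared only with itself between the groups.

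Of the 21 genes, 9 had signals above background on all 4 arrays, 6 on some of the arrays and 6 on none. The same 9 genes passed the filter on low signals (a mean of at least 33.2) and were tested in a fit over 13648 probe sets. The nearest gene inside this filter was BGLU47, with a mean signal of 39.8, and the nearest outside was BGLU46, with 25.2.

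BGLU44 was the member that rose in the mutant. Its transcript, AT3G18080, encodes an enzyme characterised as acting on beta-mannosides. Its signal was 396 and 451 in the wild-type samples and 799 and 880 in the add3 samples. Both mutant samples were above both wild-type samples, and the add3 to wild-type ratio ranged from 1.77 to 2.22 over the 4 pairs of arrays. The means were 423 ± 39.3 and 839 ± 57.1 (SD, n = 2 each), a log2 difference of 0.97 (SE 0.13, 95% interval 0.67 to 1.26, limma adjusted p = 0.0125). Of all tested probe sets, 165 (1.21%) had a log2 difference at least as high. The call held when each of the arrays in turn was left out (limma adjusted p = 0.0176 to 0.0306) and ended with no filter on low signals (0.0511), where 22746 probe sets share the adjustment.

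Among the 9 tested genes, limma thus called 1 higher and 0 lower in add3. Among all tested probe sets 7.31% were called, 4.17% higher and 3.14% lower. At an unadjusted p under 0.05, 3 members passed, BGLU44, PYK10 and BGLU15, each with a higher mean in the mutant. So did 3592 of all 13648 tested probe sets, in either direction. The median log2 difference of the 9 genes was 0.28 and that of all tested probe sets -0.05. Without add3 replicate 2 the median of the 9 was 0.14. Estimates were above 0 for 7 of the 9 genes, against 44.1% of all tested probe sets. The groups lay apart, with both mutant signals above both wild-type signals, for 5 of the 9 (BGLU44, PYK10, BGLU15, BGLU25 and BGLU40), while 24.8% of tested probe sets did so. For 0 of the 9 genes were both mutant signals below both wild-type signals, against 32.3% of tested probe sets. These shares describe a set of 9 genes and carry no test.

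**Figure D1:**
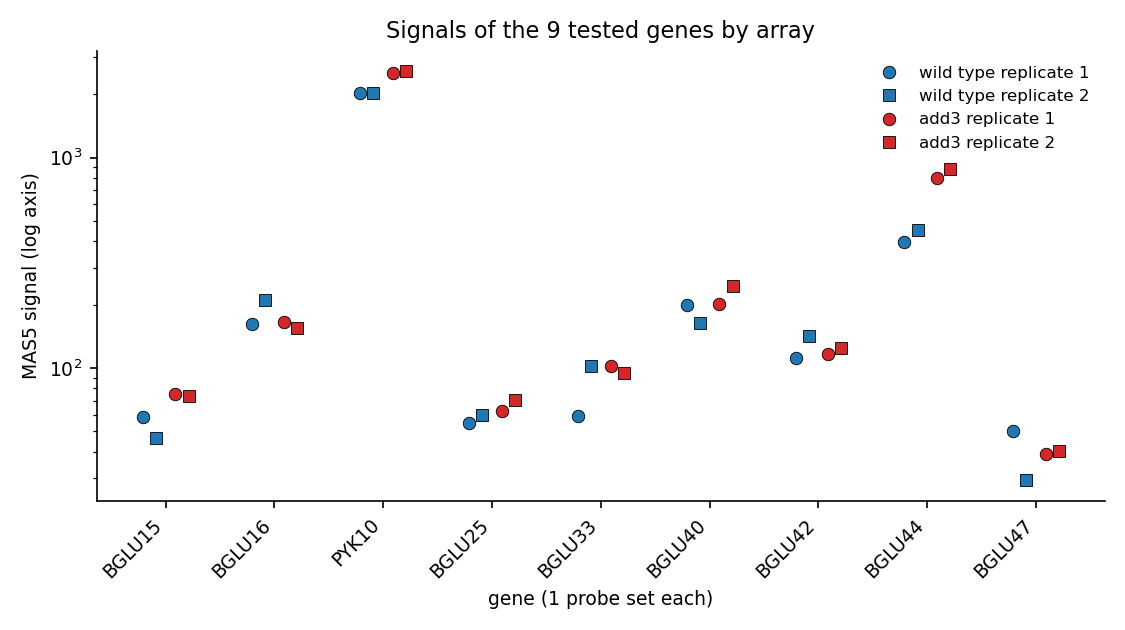
MAS5 signal (log axis) of the 9 tested genes on each of the 4 arrays, with wild type in blue and add3 in red and circles and squares for replicates 1 and 2. BGLU44 shows the widest gap between the groups, and BGLU33 and BGLU47 differ most between the wild-type replicates.

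PYK10 (AT3G09260, also BGLU23) encodes the main ER body enzyme, which is abundant in roots and hypocotyls and hydrolyses coumarin glucosides and indole glucosinolates. Its signal was 2034 and 2032 in wild type and 2511 and 2571 in add3. The replicates of each group lay close together, and the ratio between the groups was 1.23 to 1.27 over the 4 pairs of arrays. The log2 difference of 0.32 (SE 0.10, 95% interval 0.09 to 0.55) did not pass the threshold over all probe sets (limma adjusted p = 0.0989, unadjusted p = 0.0142). When medians were equalised across arrays it did (log2 difference 0.42, limma adjusted p = 0.0413). That scaling moved the median log2 difference of all tested probe sets from -0.05 to 0.04. PYK10 did not pass with quantile normalization (limma adjusted p = 0.111), without an intensity trend (0.186), with a block for replicate number (0.229) or with no filter on low signals (0.259). Of the 21 root markers listed, 3 had a probe set of their own in the annotation, and 0 of the 3 were above background on all arrays. EXPA7 read 26.8 and 17.9 in wild type, above background, and 12.1 and 5.87 in add3, below it. EXPA18 went the other way, with 5.16 and 29.0 in wild type and 30.4 and 31.5 in add3. AT1G30870 was below background on every array. The part of root markers in the PYK10 result was not tested.

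BGLU25 (AT3G03640) belongs by sequence to the same branch as PYK10. Its signals were 54.7 and 59.6 in wild type and 62.6 and 70.4 in add3. The groups did not overlap, but the distance between them on the log2 scale (0.06) was smaller than that between the wild-type replicates (0.10) or the mutant replicates (0.14). The log2 difference was 0.18 (SE 0.15, limma adjusted p = 0.496). Of the other members of this branch, BGLU19 had signals of 3.38 to 7.67 and BGLU24 of 1.39 to 7.61, all below the background of their array. A further probe set, annotated to 2 BGLU genes at once and so outside the 21, read 36.5 and 17.2 in wild type and 13.9 and 21.3 in add3, with overlapping groups.

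Among the genes listed for ER bodies and the PYK10 complex, NAI1 and JAL23 fell in the mutant. NAI1, the transcription factor gene required for ER bodies and for PYK10 expression, had signals of 98.5 and 82.5 in wild type and 37.3 and 31.5 in add3. Both mutant samples were below both wild-type samples, and NAI1 fell by 1.13 on the log2 scale (SE 0.17, limma adjusted p = 0.0157). NAI2, which encodes an ER body component, had signals of 418 and 364 in wild type and 378 and 437 in add3, so the groups overlapped (log2 difference 0.06, limma adjusted p = 0.822). Of the lectin genes whose products aggregate with PYK10 or resemble those that do, JAL23 fell from 100 and 98.9 to 24.0 and 22.8 (log2 difference -1.64, SE 0.16, limma adjusted p = 0.00793). The signal of JAL23 in add3 replicate 1 did not exceed background, and the size of its fall is uncertain to that extent. JAL22, JAL33 and JAL34 were lower in both mutant samples than in both wild-type samples, as were 32.3% of all tested probe sets. Their log2 differences of -0.11, -0.18 and -0.16 did not pass the threshold (limma adjusted p = 0.441 to 0.617). The distance between the groups (0.036, 0.003 and 0.049 on the log2 scale) was smaller than that between the replicates of either group.

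**Figure D2:**
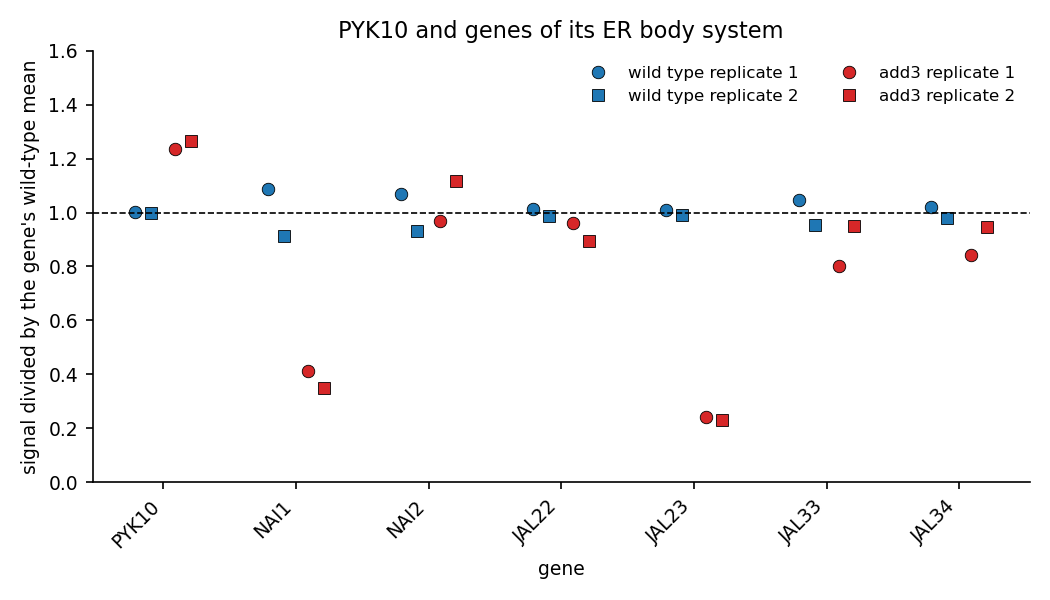
Signal of PYK10 and of 6 genes listed for ER bodies and the PYK10 complex on each array, divided by the gene's own wild-type mean (dashed line at 1). PYK10 lies above 1 on both mutant arrays, NAI1 and JAL23 lie far below 1, and NAI2, JAL22, JAL33 and JAL34 lie close to 1.

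In all, 6 of the 15 loci listed for ER bodies and the PYK10 complex had a probe set and were tested. Of these, 2 fell and 0 rose in limma, and their median log2 difference was -0.17. PYK10 itself is not counted in this list. Among all tested probe sets 3.14% were called lower and 4.17% higher, and the median log2 difference was -0.05. The call of NAI1 ended without wild-type replicate 1 (limma adjusted p = 0.0513) and with no filter (0.0662), and that of JAL23 with no filter (0.0511).

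Several members act on conjugates of phenylpropanoids. BGLU15 (AT2G44450) encodes an enzyme of flavonol glycoside breakdown, and its signals of 58.7 and 46.8 in wild type compare with 75.6 and 73.6 in add3. The groups did not overlap, and the log2 difference of 0.42 (SE 0.16, 95% interval 0.04 to 0.80) did not pass the threshold (limma adjusted p = 0.152, unadjusted p = 0.0332). BGLU47 (AT4G21760), of the branch that acts on lignin precursor glucosides, read 50.2 and 29.3 in wild type and 39.0 and 40.6 in add3. The mutant values lay between those of wild type (log2 difference 0.03, 95% interval -0.52 to 0.58). Its relatives BGLU45 and BGLU46, whose products hydrolyse monolignol glucosides, failed the filter. BGLU45 had signals of 8.56 to 11.1, all below background. BGLU46 read 27.4 and 9.75 in wild type and 42.6 and 21.1 in add3, with overlapping groups and replicates that lay 0.84 (wild type) and 0.71 (add3) apart on the log2 scale.

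Of 20 loci listed for monolignol synthesis and glucosylation, 3 were tested, 1 rose and 0 fell. Among all tested probe sets 4.17% were called higher and 3.14% lower. HCT, which encodes an acyltransferase of lignin precursor synthesis, rose from 513 and 490 to 736 and 704 (log2 difference 0.51, SE 0.11, limma adjusted p = 0.0431). UGT72E1 and UGT72E2, which encode enzymes that add glucose to monolignol-type substrates, had log2 differences of -0.89 and -0.29 (limma adjusted p = 0.106 and 0.381). UGT72E1 passed the threshold with a block for replicate number (limma adjusted p = 0.031) and with the numbers crossed (0.0325), although nothing says that these numbers pair samples. Its log2 difference was -1.35 when wild-type replicate 1 was left out and -0.42 when wild-type replicate 2 was. Of 20 loci listed for flavonoid and anthocyanin synthesis, 5 were tested, and limma called 1 higher and 1 lower, against the same shares. CHIL, a chalcone isomerase-like gene, rose by 1.42 and DFR, an anthocyanin step, fell by 0.80 on the log2 scale (limma adjusted p = 0.0107 and 0.0188). The flavonol glycosyltransferase genes UGT78D1 and UGT78D2 had log2 differences of 0.09 and 0.44 (limma adjusted p = 0.714 and 0.194). Dropping whichever array ended the call of HCT, at log2 differences of 0.48 to 0.54. That of DFR ended without add3 replicate 2 (log2 difference -0.77) or wild-type replicate 1 (-0.76). The call of HCT also ended with quantile normalization (limma adjusted p = 0.0636), without an intensity trend (0.0787) and with a block for replicate number (0.0715). With no filter HCT (0.0828), DFR (0.0607) and CHIL (0.0526) missed the threshold.

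BGLU42 (AT5G36890), known for the release of coumarins from roots and for induced resistance, read 111 and 142 in wild type and 117 and 125 in add3. Both mutant values lay between those of wild type, and the log2 difference of -0.06 had a 95% interval of -0.42 to 0.31. Of 7 loci listed for coumarin synthesis and secretion, 3 were tested and limma called 0 (0 also at an unadjusted p under 0.05). The 2 with the smallest p were AT1G55290 (F6'H2) and AT1G28680, with log2 differences of -0.08 and -0.07.

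BGLU33 (AT2G32860) encodes a vacuolar enzyme that frees abscisic acid from its glucose ester. Its signals were 59.2 and 102 in wild type and 102 and 95.1 in add3. Wild-type replicate 1 alone was low, and the other 3 samples lay together. The log2 difference was 0.29 (SE 0.22, limma adjusted p = 0.45), and it was -0.05 without wild-type replicate 1 and 0.63 without wild-type replicate 2. Of 15 loci listed for abscisic acid synthesis, conjugation and breakdown 1 was tested, UGT71C5, which encodes an enzyme that makes the glucose ester. It read 156 and 122 in wild type and 82.0 and 84.1 in add3, with both mutant values below both wild-type values. The log2 difference of -0.65 (SE 0.16) lay at the threshold without passing it (limma adjusted p = 0.0501). It passed with a 60th percentile filter (limma adjusted p = 0.042), a pseudocount of 0.5 of the median and unique probe sets (0.0482). A block with crossed replicate numbers, chosen after seeing the data, gave 0.0185. In the other fits of all 4 arrays it did not pass, with values up to 0.12. The log2 difference was -0.49 without wild-type replicate 1 and -0.82 without wild-type replicate 2.

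BGLU40 (AT1G26560) and BGLU16 (AT3G60130) are members to which no role is given here. BGLU40 read 199 and 164 in wild type and 201 and 245 in add3. The groups did not overlap, but add3 replicate 1 and wild-type replicate 1 differed by a ratio of 1.01 (log2 difference of the groups 0.28, SE 0.16, limma adjusted p = 0.308). BGLU16 read 163 and 212 in wild type and 166 and 155 in add3, with overlapping groups (log2 difference -0.20, SE 0.16, limma adjusted p = 0.469).

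The 8 tested members without a call had limma adjusted p-values of 0.0989 to 0.947. Their 95% intervals reached from -0.56 at the lowest to 0.82 at the highest on the log2 scale. For 6 of the 9 genes the interval held 0. The interval of BGLU44 overlapped those of 2 other members, BGLU15 and BGLU33, and for 0 of the 8 did the interval reach the estimate of BGLU44. With 2 samples against 2, an exact two-sided permutation test of a single gene cannot give a p below 0.333.

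**Figure D3:**
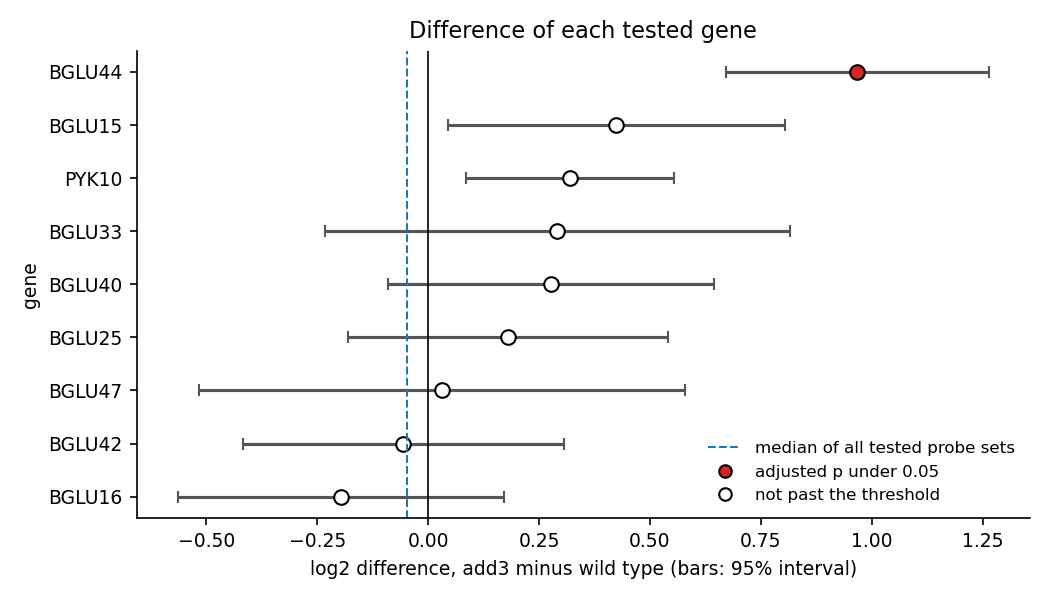
Log2 difference, add3 minus wild type, of the 9 tested genes with 95% intervals from limma. BGLU44 (0.97) is past the adjusted threshold, the other 8 are not, and the dashed line marks the median of all tested probe sets (-0.05).

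The 12 genes that failed the filter were BGLU19, BGLU24, BGLU27, BGLU28, BGLU29, BGLU31, BGLU32, BGLU36, BGLU41, BGLU43, BGLU45 and BGLU46. In this set, both mutant signals were above both wild-type signals for 3 genes (BGLU24, BGLU28 and BGLU43) and below them for 2 (BGLU29 and BGLU41), against 19.4% and 30.8% of all non-control probe sets. BGLU24 and BGLU43 were below background on every array, so their order has no usable level.

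BGLU41 (AT5G54570) exceeded background on 3 arrays. Its signals were 22.0 and 25.8 in wild type, both above background. They were 8.39 and 12.6 in add3, of which replicate 2 was just above its background of 12.3. Replicate 1 was below its background of 25.4, a level close to the wild-type signals. In a fit with no filter the log2 difference was -0.67 (limma adjusted p = 0.181), so the difference did not pass the threshold. BGLU29 (AT2G44470) read 26.3 and 18.6 in wild type, above background, and 18.0 and 9.65 in add3, below it (limma adjusted p = 0.442 with no filter). The background of add3 replicate 1 (25.4) exceeded the signal of wild-type replicate 2, so no size is given for the difference.

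BGLU28 (AT2G44460), a gene induced by sulfur deficiency whose product is linked to glucosinolate breakdown, read 12.4 and 12.4 in wild type and 24.9 and 18.0 in add3. It exceeded background on 1 array, that of add3 replicate 2 (limma adjusted p = 0.329 with no filter). AT1G04770, the 1 tested locus of 16 listed for the sulfur deficiency response, had a log2 difference of 0.42 (SE 0.24, limma adjusted p = 0.303). Of 25 loci listed for glucosinolate synthesis 3 were tested and limma called 0, with 2 at an unadjusted p under 0.05 (3592 of all 13648 tested probe sets). Those were AT2G31790 (135 and 151 against 190 and 214, limma adjusted p = 0.086) and BCAT4, an aminotransferase gene of methionine-derived glucosinolates (528 and 475 against 578 and 713, limma adjusted p = 0.171), both higher in both mutant samples. BGLU36 (AT1G51490), which belongs to the myrosinase branch of enzymes that hydrolyse glucosinolates, ranged from 2.22 to 15.6 and exceeded background on 1 array. BGLU27 had signals of 8.91 to 15.8 and exceeded background on 1 array, BGLU31 had 2.53 to 12.3 and BGLU32 1.35 to 9.36, below background throughout.

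**Figure D4:**
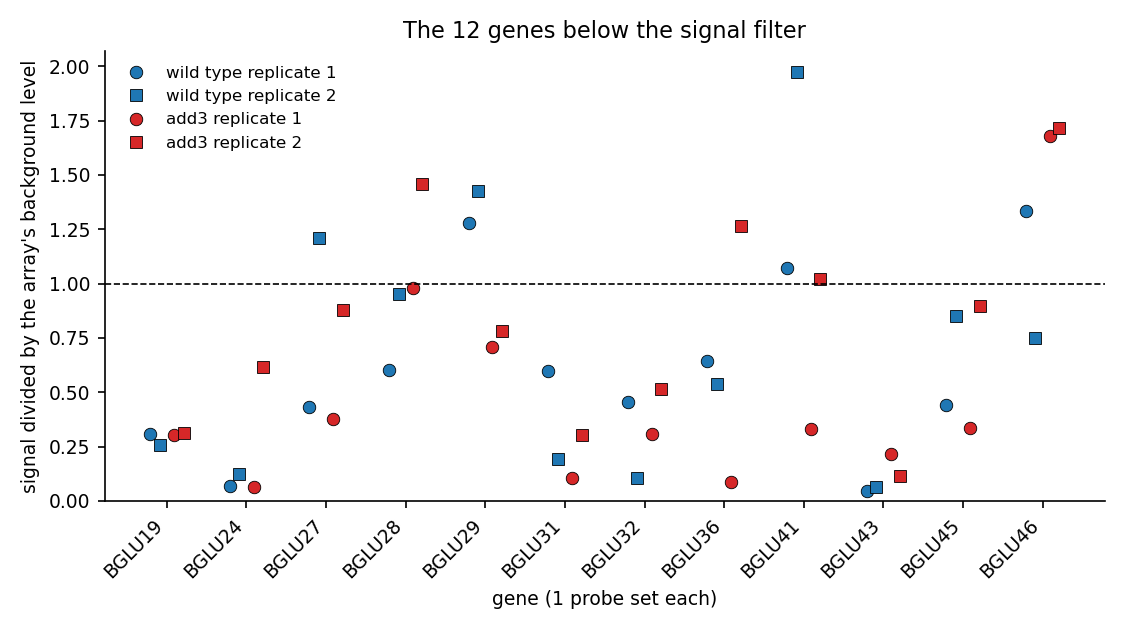
Signal of the 12 genes below the filter, divided by the background level of the same array (dashed line at 1), with wild type in blue and add3 in red. BGLU29 lies above 1 on both wild-type arrays and below 1 on both mutant arrays, and 6 genes stay below 1 on all 4 arrays.

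Several members are neighbours in the gene order of TAIR10.1, with 0 protein-coding genes between them. BGLU44 and BGLU43 are such a pair, and while BGLU44 rose, BGLU43 had signals of 0.85 to 5.46, below background on each array. BGLU15, BGLU28 and BGLU29 form a row of 3. Both mutant signals exceeded both wild-type signals for BGLU15 and BGLU28 and were below them for BGLU29, with 0 of the 3 past the threshold in any fit run here. The other neighbouring pairs were BGLU45 with BGLU46, BGLU27 with BGLU16, and BGLU31 with BGLU32. In each of the first 2 pairs 1 gene exceeded background on more arrays than its neighbour. Whether probes of such relatives bind each other's transcripts was not tested.

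Glycoside hydrolase family 3 is a separate enzyme family that holds other beta-glucosidases and beta-xylosidases. Of 10 loci listed for it 4 were tested, 1 rose and 1 fell, while 4.17% of all tested probe sets were called higher and 3.14% lower. AT1G78060 rose from 114 and 135 to 189 and 220 (log2 difference 0.66, SE 0.15, limma adjusted p = 0.044), and AT5G20950 fell from 626 and 687 to 399 and 428 (log2 difference -0.65, SE 0.12, limma adjusted p = 0.0276). Dropping whichever array ended the call of AT1G78060 (limma adjusted p = 0.051 to 0.181), and of the 4 such fits AT5G20950 was called in that without wild-type replicate 1 (0.0534 to 0.13 in the others). Neither was called with no filter (0.0983 and 0.0657) or without an intensity trend (0.0653 and 0.0548).

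**Figure D5:**
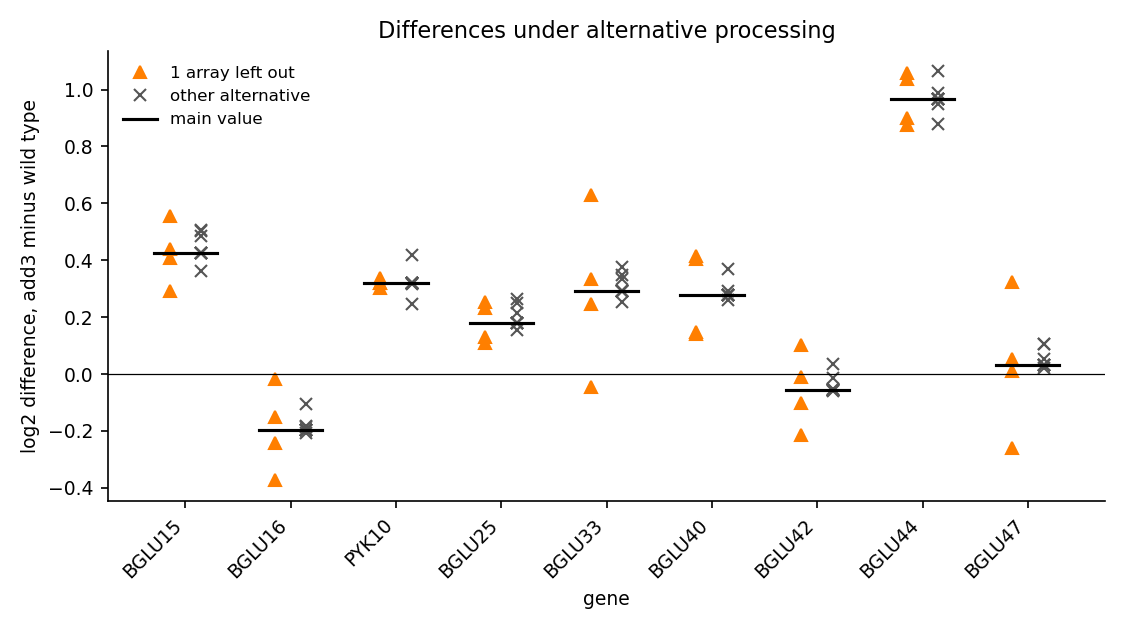
Log2 difference, add3 minus wild type, of the 9 tested genes in the main fit (bar), with 1 array left out (triangles) and under the other alternatives (crosses). BGLU44 stays between 0.88 and 1.06 and PYK10 between 0.25 and 0.42, while BGLU33, BGLU42 and BGLU47 have values on both sides of 0.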

How the data were processed

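The deposited table holds linear MAS5 signal intensity values, 1 for each array and probe set, for which the submitters' processing notes name MAS5 as the tool the authors used. Its version is not given in the sources used here. Since the mean without the lowest and highest 2% was 100 on all arrays, they had been scaled globally. Titles gave the groups and the replicate numbers. The members and lists were chosen with earlier results of these data known. Lists were written by locus from general knowledge.

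The 64 control probe sets were left out. Of the rest, 13513 are annotated to 1 gene, 503 to several and 8730 to none. Before taking log2, a pseudocount of 12.5 (0.25 of the median signal) was added, which compresses changes of dim genes. Probe sets whose mean signal reached the 40th percentile (33.2) were tested with limma 3.58.1 in R 4.3.3, two-sided, with an intensity trend and 2 residual degrees of freedom. P-values were adjusted by Benjamini-Hochberg over 13648 probe sets, with a threshold of 0.05. As background each array had its brightest reading among 27 bacterial control probe sets. The text names every BGLU gene, and of each list up to 4 called genes or the 2 with the smallest p, with some further list genes and markers. The procedure was tested on simulated data. The number of arrays limits the precision. Signal ratios of 3' to 5' actin control probe sets were 4.49 and 2.71 in wild-type replicates 1 and 2 and 3.10 and 3.17 in add3. With another pair of actin controls they were 5.04 and 7.23 in wild type and 5.47 and 7.18 in add3. Whether RNA quality bears on the differences between replicates was not tested. Alternatives changed the filter, pseudocount, scaling, variance model, threshold, probe sets, block and arrays.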

Additional observations from a re-analysis of the deposited data

How the results depend on the processing

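The rise of BGLU44 was called under each alternative except no filter on low signals, with log2 differences of 0.88 to 1.06. BGLU genes called higher numbered 0 with no filter, and 2 with median scaling or at a threshold of 0.1, where PYK10 joined BGLU44; 0 were called lower in any fit. The estimate turned sign, with no call, for BGLU42 with median scaling (0.034), and when 1 array was left out for BGLU33 (-0.046 to 0.63), BGLU42 (-0.21 to 0.10) and BGLU47 (-0.26 to 0.32). Among all probe sets, 569 were called higher and 428 lower. These counts were 5 and 8 with no filter (4143 at an unadjusted p under 0.05), 937 and 320 with median scaling (74.5% of calls higher, against 57.1%), 308 and 247 without the intensity trend, and 1038 and 929 at a threshold of 0.1. Leaving out 1 array gave 232 to 506 higher and 205 to 311 lower, where a lone sample is assumed to vary like the other group. The median log2 difference of the tested BGLU genes was 0.28 in the main fit, 0.14 to 0.32 with 1 array left out, 0.37 with median scaling and 0.17 over all 21 genes with no filter. Nothing says that replicate numbers pair samples. With the replicate block 501 were higher and 377 lower, and BGLU44 kept its call (limma adjusted p = 0.0113), HCT lost its own (0.0715) and UGT72E1 gained one (0.031). Deviations of same-numbered samples correlated at -0.12, and a block with crossed numbers, chosen after seeing the data, gave 1050 and 859. The causes were not tested.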
